A study of Mus musculus with 13 samples.

Results

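The genes described here are 10 genes of smooth muscle and myofibroblasts, chosen by symbol from the 20270 genes listed in the deposited lung tables. They are Acta2, Actg2, Tagln, Cnn1, Tpm2, Lmod1, Myh11, Myl9, Des and Hhip, and all 10 were found and passed the filter on low counts, which left 15315 genes for testing. Lung RNA was sequenced from 13 mice. Control mice (n = 4, mice 3, 21, 24 and 26) were wildtype male C57BL/6J, 13 weeks old, and received saline without bleomycin. WT bleomycin mice (n = 5, mice 4, 2, 5, 4-B2 and 7) were of the same strain, sex and age and had been given bleomycin once by oropharyngeal aspiration, at 1 U per kg, and were sampled 14 days later. Bleomycin is a drug that injures the lung and is followed by fibrosis. CB1R KO bleomycin mice (n = 4, mice 8, 9, 10 and 11) were Cnr1-/- on a C57Bl/6J background, lacked the cannabinoid receptor CB1R in every tissue, and were sampled 14 days after the same dose. The age of the CB1R KO mice is not given in the sources used here, and the paper does not state their sex. No CB1R KO lung without bleomycin was analysed, so an effect of the deletion alone and one on the bleomycin response cannot be told apart.

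Smooth muscle cells of airways and vessels contract when the motor protein myosin pulls on filaments of actin, and intermediate filaments of desmin hold the apparatus together. After lung injury, fibroblasts can become myofibroblasts, which take up part of the same program, above all smooth muscle actin, and pull on the matrix they deposit. Smooth muscle myosin heavy chain is the classical marker of mature smooth muscle, whereas smooth muscle actin is shared by both cell types. Hhip is not a contractile gene. It encodes a membrane and secreted protein that binds Hedgehog ligands and is itself a target of Hedgehog signalling, and it is known from the lung mesenchyme.

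Totals lay between 14615904 and 16662580 estimated counts in 12 libraries, and that of CB1R KO replicate 11 was 53463884. The least abundant of the 10 genes, Lmod1, still had between 124 and 491 estimated counts per library. Values per library are given as CPM, counts scaled to library size with the TMM factors, and levels of different genes are compared only in TPM, which is scaled for transcript length. Markers of the sampled tissue were found in all libraries: the summed TPM of 5 type II cell markers was at least 17680 and that of 4 club cell markers at least 36700. The deleted gene, Cnr1, was counted in every library, with 0.403 to 1.05 TPM in Control, 0.848 to 1.85 in WT bleomycin and 0.648 to 1.5 in CB1R KO. The deposited gene totals do not show which stretch of Cnr1 was read, so its level does not check the genotype. The labels give each library a number and its group, and each library was taken as a separate mouse and a replicate. WT bleomycin libraries 4 and 4-B2 share a number in their labels, and what B2 marks is not stated. In RNA of a whole lobe, fewer cells of a type and less RNA per cell cannot be told apart. This holds for every difference below.

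By TPM, the order of the 10 genes in Control lungs ran from Tagln (184 ± 17.0, SD, n = 4) and Acta2 (173 ± 19.9), whose ranges overlapped, through Myl9 (143 ± 6.43), Des (72.4 ± 5.10), Tpm2 (64.5 ± 3.28), Myh11 (52.6 ± 5.34) and Cnn1 (48.8 ± 7.72) to Actg2 (22.8 ± 2.38), Hhip (8.61 ± 0.968) and Lmod1 (6.50 ± 0.943). The ranges of Des and Tpm2 overlapped, as did those of Myh11 and Cnn1. In WT bleomycin lungs Tagln (331 ± 37.5, n = 5) and Acta2 (275 ± 67.2) still led. Tpm2 (100 ± 9.68) now stood above Des (79.5 ± 9.31) without overlap, and Actg2 (49.9 ± 5.95) had a higher mean than Myh11 (36.2 ± 6.89). In CB1R KO bleomycin lungs the means of Tagln (219 ± 9.77, n = 4) and Acta2 (201 ± 18.01) led again, and the TPM ranges of Cnn1 and Myh11 each overlapped with the next in the order, Actg2 following Myh11.

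**Figure D1:**
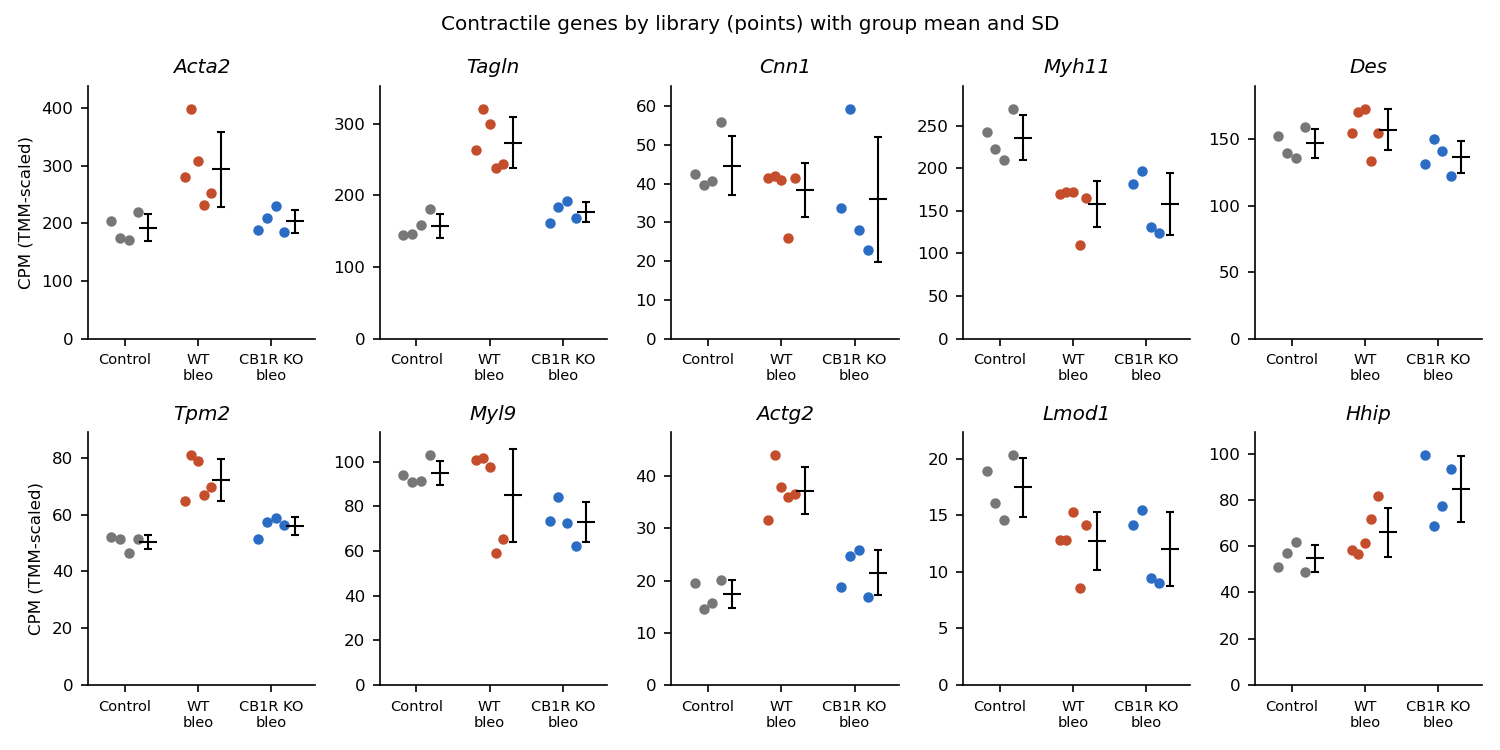
CPM of each of the 10 genes in each library (points) with the group mean and SD (black), on axes that start at 0. Acta2, Tagln, Tpm2 and Actg2 lie higher in all 5 WT bleomycin libraries than in any Control or CB1R KO library, whereas Myh11 lies lower than Control in all 9 bleomycin libraries.

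The first comparison, WT bleomycin against Control, shows how the 10 genes stood in the injured lung. The actin genes and 2 actin-binding proteins were higher, the smooth muscle myosin heavy chain was lower, and the remaining genes did not pass the test. At an adjusted p of 0.05, 4 of the 10 genes were called higher and 1 lower. Of all genes tested, 48.9% were called in this comparison, 25% as higher and 23.9% as lower, so a count of 5 among 10 is close to the share among all genes. Libraries of the 2 groups did not overlap in CPM for the same 5 genes (4 above, 1 below), which was the case for 40.3% of all genes tested. The median log2 fold change of the 10 genes was 0.18. The values below come from edgeR's quasi-likelihood test across all 3 groups, with Benjamini-Hochberg adjustment over the 15315 genes.

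Acta2, smooth muscle alpha actin, stood at 205, 175, 172 and 219 CPM in the Control mice, and at 279.9, 399, 308, 232 and 252 CPM in the WT bleomycin mice. Each WT bleomycin library was above each Control library, with mouse 2 the highest. The log2 fold change was 0.61 (SE 0.14, adjusted p = 0.0019), a 1.53-fold higher level. Without mouse 2 the log2 fold change was 0.48, still past the threshold. Actg2, the gamma actin of enteric and other visceral smooth muscle, was the contractile gene with the highest fold change. Control libraries held 19.5, 14.5, 15.8 and 20.1 CPM and WT bleomycin libraries 31.5, 44.0, 37.9, 36.0 and 36.6 CPM. The groups were apart, and the log2 fold change was 1.09 (SE 0.14, adjusted p = 2.6e-05), which is 2.13-fold.

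Many genes of smooth muscle carry a short element in their promoters, the CArG box, which binds serum response factor and is made of 2 cytosines, a core of 6 adenines or thymines and 2 guanines. The 250 bases upstream of the annotated start were searched on both strands in RefSeq GRCm38.p6, which held 7 of the 10 genes: Acta2, Cnn1, Des, Tpm2, Myl9, Lmod1 and Hhip. A strict match lay upstream of Myl9, and 1.35% of 15749 promoters matched by symbol to the tables held one. With at most 1 guanine or cytosine allowed in the core, Acta2 and Myl9 each held 2 matches, and 8.4% of all promoters at least 1. The Acta2 matches were CCCTATATGG, which begins at position -84 from the start site, and CCTTGTTTGG at -34. Those of Myl9 were CCTAATAAGG at -161 and CCTTGTAAGG at -99. The shorter element CATTCC, which is bound by TEAD factors and was also searched on both strands, lay upstream of Acta2 and Lmod1 and in 11.3% of promoters. A match is a description of these windows only. The windows of Acta2 and Myl9 are shown because they hold all the CArG matches found among the 10 genes, with those matches in capitals, and because Acta2 was called higher after bleomycin whereas Myl9 was not called.
Acta2, chr19:34255374-34255623, minus strand: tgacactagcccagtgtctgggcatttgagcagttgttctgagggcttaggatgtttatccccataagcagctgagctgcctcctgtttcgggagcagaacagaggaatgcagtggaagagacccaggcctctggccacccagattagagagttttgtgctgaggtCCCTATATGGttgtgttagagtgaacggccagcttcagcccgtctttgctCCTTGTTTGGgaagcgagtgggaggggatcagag
Myl9, chr2:156775214-156775463, plus strand: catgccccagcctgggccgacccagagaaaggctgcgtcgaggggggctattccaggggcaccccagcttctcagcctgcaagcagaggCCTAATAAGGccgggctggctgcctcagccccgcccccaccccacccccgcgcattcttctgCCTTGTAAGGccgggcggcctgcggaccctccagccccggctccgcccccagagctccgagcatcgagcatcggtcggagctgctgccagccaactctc

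Transgelin, calponin and tropomyosin bind along the actin filament. Tagln, the transgelin of smooth muscle, held 145, 146, 158 and 180.4 CPM in Control libraries and 263, 321, 300.4, 239 and 244 CPM in WT bleomycin libraries. The groups were apart by a wide margin, with a log2 fold change of 0.80 (SE 0.10, adjusted p = 1.4e-05). Tpm2, beta tropomyosin, was similar, at 52.0, 51.3, 46.6 and 51.5 CPM in Control and 64.6, 80.8, 78.7, 66.9 and 69.7 CPM in WT bleomycin libraries. Its log2 fold change was 0.52 (SE 0.08, adjusted p = 6.3e-05). Cnn1, calponin 1, a marker of differentiated smooth muscle, did not follow them. Control libraries held 42.4, 39.7, 40.6 and 56.1 CPM and WT bleomycin libraries 41.6, 42.1, 41.0, 25.9 and 41.5 CPM. The groups overlapped and the log2 fold change was -0.22 (SE 0.23, adjusted p = 0.46). Lmod1, leiomodin 1, which seeds actin filaments in smooth muscle, held 19.0, 16.1, 14.6 and 20.3 CPM in Control and 12.9, 12.8, 15.3, 8.58 and 14.1 CPM in WT bleomycin libraries. Its log2 fold change of -0.46 (SE 0.19) had an adjusted p of 0.056.

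The 2 myosin genes encode the heavy chain and a regulatory light chain. Myh11 stood at 242, 223, 210.4 and 270.0 CPM in Control mice and at 170.5, 172, 172.5, 110.2 and 166 CPM in WT bleomycin mice. All 5 treated libraries were below all Control libraries, mouse 4-B2 being the lowest. The log2 fold change was -0.58 (SE 0.15, adjusted p = 0.0059), which is 1.49-fold lower. With the 3 libraries whose labels contain capitals left out (Control 26, WT 4-B2 and WT 7), it was -0.39 with an adjusted p of 0.070. Myl9 held 94.1, 91.0, 91.5 and 103 CPM in Control libraries. WT bleomycin libraries fell in 2 ranges, with mice 4, 2 and 5 at 101, 102 and 97.7 CPM and mice 4-B2 and 7 at 59.0 and 65.5 CPM. The log2 fold change was -0.16 (SE 0.15, adjusted p = 0.40). It was 0.12 among libraries with lower-case labels, a setting that also turned Cnn1 to 0.03, with neither gene past the threshold.

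Des, desmin, held 152, 139.8, 136 and 159.5 CPM in Control and 154, 170.2, 173, 134 and 155 CPM in WT bleomycin libraries, with a log2 fold change of 0.10 (SE 0.08, adjusted p = 0.35). Desmin is also a gene of heart and skeletal muscle. All 9 cardiac muscle markers were called lower in WT bleomycin lungs, with a median log2 fold change of -1.97 and a summed TPM of 718 to 1874 in Control and 139.9 to 537 in WT bleomycin libraries. Their part in the values of Des was not tested. Hhip held 51.1, 57.3, 61.9 and 49.0 CPM in Control and 58.4, 56.6, 61.3, 71.7 and 81.8 CPM in WT bleomycin libraries. The groups overlapped, and the log2 fold change was 0.27 (SE 0.13, adjusted p = 0.096). Mice 4-B2 and 7, the highest of the WT bleomycin group, carry labels with capitals, and among libraries with lower-case labels the log2 fold change of Hhip was 0.06 (adjusted p = 0.76).

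**Figure D2:**
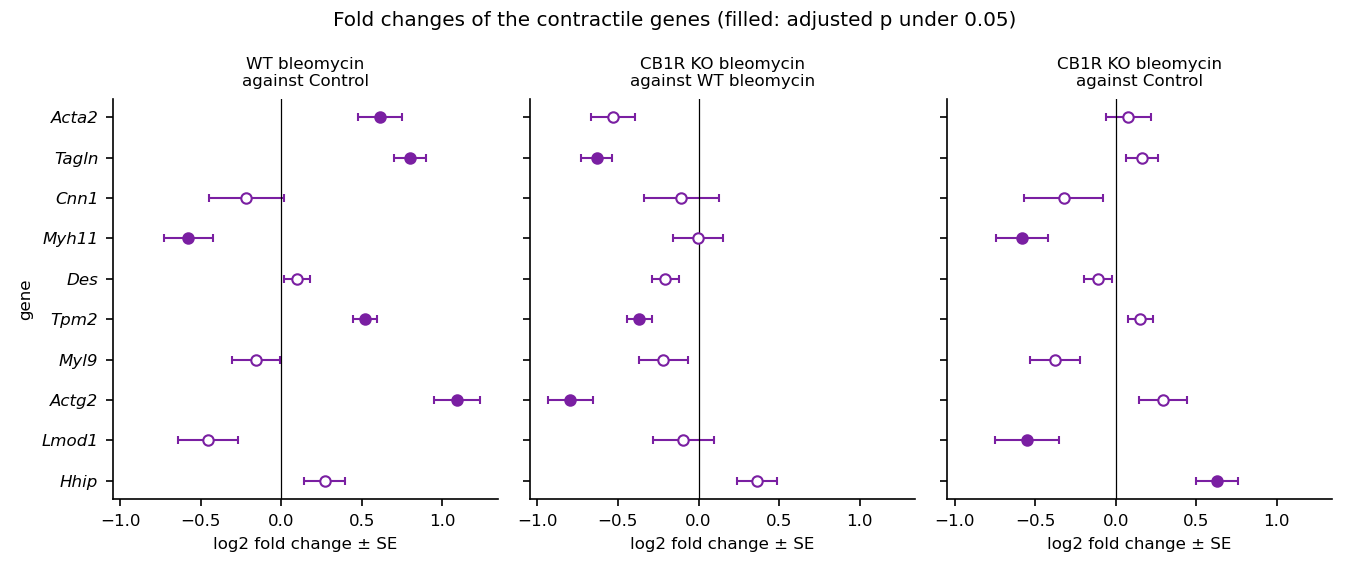
Log2 fold change with its SE (horizontal axis) of the 10 genes (vertical axis) in the 3 comparisons, filled where the adjusted p is under 0.05. Actg2, Tagln, Acta2 and Tpm2 lie to the right in WT bleomycin against Control, and to the left in CB1R KO against WT bleomycin, where Acta2 did not pass the threshold.

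Because Acta2 and Myh11 moved apart, their ratio was taken in each library after these values had been seen, as a description without a test. In TPM, Control libraries held 3.32, 3.28, 3.23 and 3.33 units of Acta2 per unit of Myh11. WT bleomycin libraries held 6.85, 9.44, 7.12, 8.51 and 6.25. CB1R KO mice 8 and 9 lay between these ranges, at 4.24 and 4.45, and mice 10 and 11 within the WT bleomycin range, at 7.32 and 6.55. The high ratios in mice 10 and 11 went with Myh11 levels of 30.7 and 29.2 TPM, against 43.2 and 46.1 TPM in mice 8 and 9, while Acta2 lay between 183 and 224 TPM in all 4 mice.

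**Figure D3:**
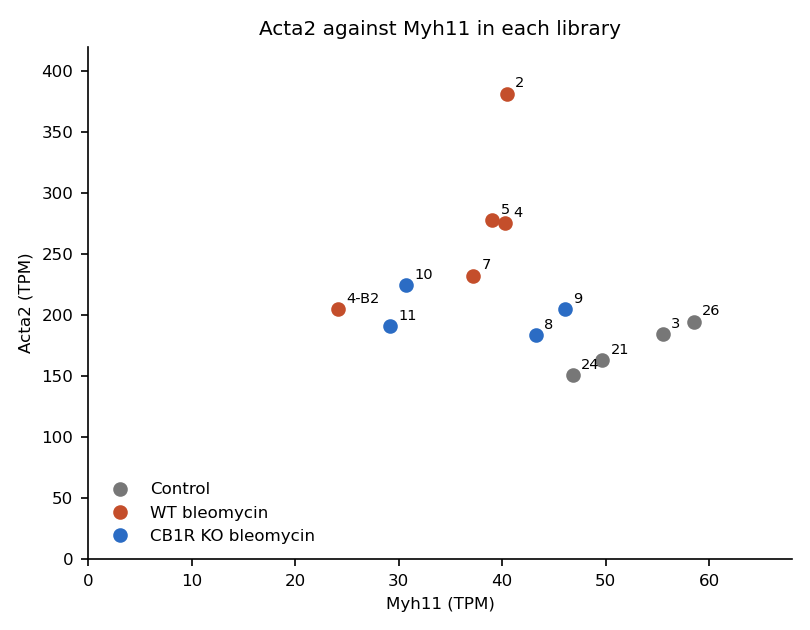
Acta2 against Myh11, both in TPM on axes that start at 0, with 1 point per library labelled by mouse. The 4 Control libraries lie on a line of nearly constant ratio, 3.23 to 3.33, and the 5 WT bleomycin libraries lie above it, at 6.25 to 9.44.

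The second comparison, CB1R KO bleomycin against WT bleomycin, asked whether the injured lung differed with the receptor deleted. Tagln, Actg2 and Tpm2 were lower in CB1R KO lungs. In all, 3 of the 10 genes were called, all lower, where 0.979% of all genes tested were called, 0.359% as higher and 0.62% as lower. At an unadjusted p under 0.05, 6 of the 10 genes and 17% of all genes passed. The CPM of the 2 groups did not overlap for 4 of the 10 genes, all lower in CB1R KO, and for 5.6% of all genes. The median log2 fold change of the 10 genes was -0.21. The WT bleomycin libraries serve as the reference here and as the treated group in the first comparison, so the 2 sets of fold changes are not independent of each other.

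Tagln stood at 161, 184, 192 and 169 CPM in CB1R KO mice 8, 9, 10 and 11, all below the lowest WT bleomycin library at 239 CPM. The log2 fold change was -0.63 (SE 0.10, adjusted p = 0.018), which is 1.55-fold lower. Actg2 held 18.7, 24.8, 25.8 and 16.9 CPM, below the WT bleomycin minimum of 31.5 CPM, with a log2 fold change of -0.80 (SE 0.14, adjusted p = 0.023), 1.74-fold lower. Tpm2 held 51.3, 57.4, 58.9 and 56.2 CPM against a WT bleomycin minimum of 64.6 CPM, with a log2 fold change of -0.37 (SE 0.07, adjusted p = 0.037). The direction of all 3 was the same without any 1 library, but their calls were not. Tagln lost the threshold without CB1R KO mouse 8, 9 or 11 (adjusted p = 0.068, 0.066 and 0.052), and none of the 10 genes was called in these settings. At the same time the calls among all genes fell from 150 to 9, 1 and 3. Label style bears on the groups unequally, since all 4 CB1R KO libraries have lower-case labels and 2 of 5 WT bleomycin libraries have capitals. With label style as a term, Tagln stayed past the threshold (adjusted p = 0.038) and Actg2 (0.059) and Tpm2 (0.073) did not, and with lower-case labels only the adjusted p was 0.022, 0.13 and 0.13. Actg2 and Tpm2 were also lost without WT mouse 5, 4-B2 or 7, and Tpm2 without WT mouse 2 or Control mouse 21.

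Acta2 held 189, 209.6, 229.6 and 186 CPM in CB1R KO libraries, and the highest of them lay just under the lowest WT bleomycin library, mouse 4-B2 at 232 CPM. The log2 fold change was -0.53 (SE 0.14) with an adjusted p of 0.073, so Acta2 was not called here, whereas DESeq2 on all libraries gave an adjusted p of 0.0084. Des, at 131, 150.3, 141 and 123 CPM, had a log2 fold change of -0.21 (SE 0.08, adjusted p = 0.22). Myh11, Lmod1 and Cnn1 had close means in the 2 bleomycin groups, with wide spreads. Myh11 held 182, 197, 131 and 124 CPM in CB1R KO, with a log2 fold change of 0.00 (SE 0.15). Lmod1, at 14.1, 15.5, 9.44 and 9.06 CPM, was at -0.10 (SE 0.19, adjusted p = 0.83). Cnn1, at 33.8, 59.3, 28.0 and 22.8 CPM, was at -0.11 (SE 0.23, adjusted p = 0.85). In each of these 3 genes mouse 9 was the highest of the CB1R KO group and mouse 11 the lowest. Myl9, at 73.3, 84.2, 72.8 and 62.4 CPM, was at -0.22 (SE 0.15, adjusted p = 0.49). Hhip was the gene of the 10 with a positive log2 fold change, 0.36 (SE 0.13, adjusted p = 0.16), and its CB1R KO libraries, at 99.2, 68.6, 77.5 and 93.4 CPM, overlapped with WT bleomycin.

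Markers of other cells also differed between the bleomycin groups. Of 8 activated fibroblast markers, all had a log2 fold change under 0 in CB1R KO and 1, Fn1, the matrix protein fibronectin, was called lower (log2 fold change -0.86, SE 0.18, adjusted p = 0.039). Their summed TPM was 464 to 575 in Control, 2385 to 3183 in WT bleomycin and 1573 to 2576 in CB1R KO libraries, and none was at 0. The 9 cardiac markers all had log2 fold changes over 0, with a median of 1.08. Of these 9, edgeR called 0 and 8 had an unadjusted p under 0.05, with a summed TPM of 515 to 941 in CB1R KO. Of 5 type II cell markers 2 were called higher, with a summed TPM of 17680 to 21160 in WT bleomycin and 22080 to 34070 in CB1R KO. Of 7 alveolar fibroblast markers 2 were called higher, with sums of 1093 to 1547 and 1376 to 2630 TPM. Of 5 endothelial markers 1 was called higher, with sums of 1029 to 1233 and 1196 to 1433 TPM. The part of these cells in the lower Tagln, Actg2 and Tpm2 was not tested. Pericytes, which also express contractile genes, had 0 of 6 markers called in edgeR (3 at an unadjusted p under 0.05), with sums of 207.8 to 272 TPM in WT bleomycin and 264 to 271 TPM in CB1R KO.

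The third comparison set CB1R KO bleomycin against Control, groups that differ in both treatment and genotype. Hhip was higher, and Myh11 and Lmod1 were lower. Called were 3 of the 10 genes, 1 higher and 2 lower, beside 35.4% of all genes, 19% as higher and 16.3% as lower. The groups did not overlap in CPM for 3 of the 10 genes, Hhip above and Myh11 and Myl9 below, and for 33.5% of all genes. Control libraries are shared with the first comparison.

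Hhip had a log2 fold change of 0.63 (SE 0.13, adjusted p = 0.0023), which is 1.55-fold, and passed the threshold in all 25 alternative settings. Myh11 was at -0.58 (SE 0.16, adjusted p = 0.012) and also passed in all 25. Lmod1 was at -0.55 (SE 0.20, adjusted p = 0.042), and passed in 12 of 25. Myl9 was at -0.38 (SE 0.16, adjusted p = 0.076) and Cnn1 at -0.32 (SE 0.24, adjusted p = 0.32), which became -0.67 with an adjusted p of 0.012 without CB1R KO mouse 9. The genes that were higher in WT bleomycin lungs were not called here by edgeR on counts. Acta2 was at 0.08 (SE 0.14, adjusted p = 0.70), Tagln at 0.16 (SE 0.10, adjusted p = 0.22), Tpm2 at 0.15 (SE 0.08, adjusted p = 0.15) and Actg2 at 0.29 (SE 0.15, adjusted p = 0.14). Limma on log2(TPM + 1) called 5 of the 10 genes in this comparison, 4 of them higher and 1 lower. The 4 higher were Hhip, Tagln, Tpm2 and Actg2, and the 1 lower was Myh11. That fit called 33.2% of all genes, 23.3% as higher and 9.83% as lower, a split further to the higher side than that of edgeR. TPM and CPM did not move in step. For Tpm2 the TPM value per unit of CPM was 1.26 to 1.32 in Control, 1.36 to 1.43 in WT bleomycin and 1.36 to 1.45 in CB1R KO libraries. For Acta2 it was 0.879 to 0.933 in Control and 0.972 to 1.03 in CB1R KO. Genes with 1 protein-coding transcript in GENCODE M21 showed it too, with Des at 0.48 to 0.507 and 0.515 to 0.529, and Hhip at 0.153 to 0.161 and 0.165 to 0.168. The part of this shift in the limma calls was not tested.

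Kallisto assigns reads by stretches of 31 bases. In the GENCODE M21 transcripts of another build, GRCm38, the share of such stretches that also occur in another protein-coding gene was at most 4.02% for any of the 10 genes. That maximum was Tagln, which shares 64 with Pcsk7. Acta2 shared 1.2% with Actg1 and Actg2 shared 0.636%, most with Actc1.

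Within the groups, the levels of the genes other than Hhip were positively correlated from mouse to mouse. Log2 CPM was centred on the mean of its group, and each pair of genes was correlated over the 13 libraries, with an exact permutation of the libraries within groups (69120 arrangements, two-sided) and adjustment over 45 pairs. These libraries share the piece of lung sampled and the scaling of each library across all genes. Label style was not a part of the centring or of the permutation. Without Hhip, all 36 pairs were positive, with r between 0.21 and 0.97 and a median of 0.67. By Pearson's r, 17 had an adjusted p under 0.05. The share of such pairs among all genes tested was not computed, for these pairs or for those of Hhip below. The counts therefore do not set these genes apart from others. The closest pairs were among Myh11, Lmod1 and Cnn1. Myh11 and Lmod1 had Pearson's r = 0.97 (Spearman's rho 0.93, exact permutation p = 0.000333 and 0.000839, adjusted p = 0.00749 and 0.0178), and r = 0.94 without the 2 libraries farthest from the median of Myh11. Cnn1 and Myh11 had r = 0.90 (rho 0.87, exact permutation p = 0.000521 and 0.00195, adjusted p = 0.00781 and 0.022), and 0.92 without 2 libraries. Acta2 and Tagln had r = 0.85 (rho 0.79, exact permutation p = 0.00139 and 0.00958, adjusted p = 0.00958 and 0.0332), and 0.76 without 2 libraries. The lowest of the 36 was the pair of Myh11 and Tpm2 with r = 0.21 (rho 0.15, exact permutation p = 0.581 and 0.645, adjusted p = 0.581 and 0.645), which fell to 0.02 without 2 libraries.

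Hhip went the other way. Its correlation with the other 9 genes was negative in every pair, from -0.76 with Myl9 to -0.34 with Lmod1. By Pearson's r, 4 of the 9 had an adjusted p under 0.05, namely Acta2, Tagln, Des and Myl9. Of these, Tagln and Des did not pass in the permutation of Spearman's rho (adjusted p = 0.0553 and 0.0716). With Acta2, r was -0.74 (rho -0.74, exact permutation p = 0.00738 and 0.00712, adjusted p = 0.0291 and 0.0302), and -0.79 without the 2 libraries farthest from the median of Acta2. Taken by library, WT mouse 4-B2 was under its group mean in all of the genes but Hhip, Control mouse 26, WT mice 2 and 5 and CB1R KO mouse 9 were over it in 9 of 10, and CB1R KO mouse 11, the deepest library, was over it in 2 of 10. WT mice 4-B2 and 7, whose labels contain capitals, lay at -0.49 and -0.34 from the group mean in log2 CPM for Myl9. For Hhip they lay at 0.13 and 0.32. The part of label style in these correlations was not tested.

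**Figure D4:**
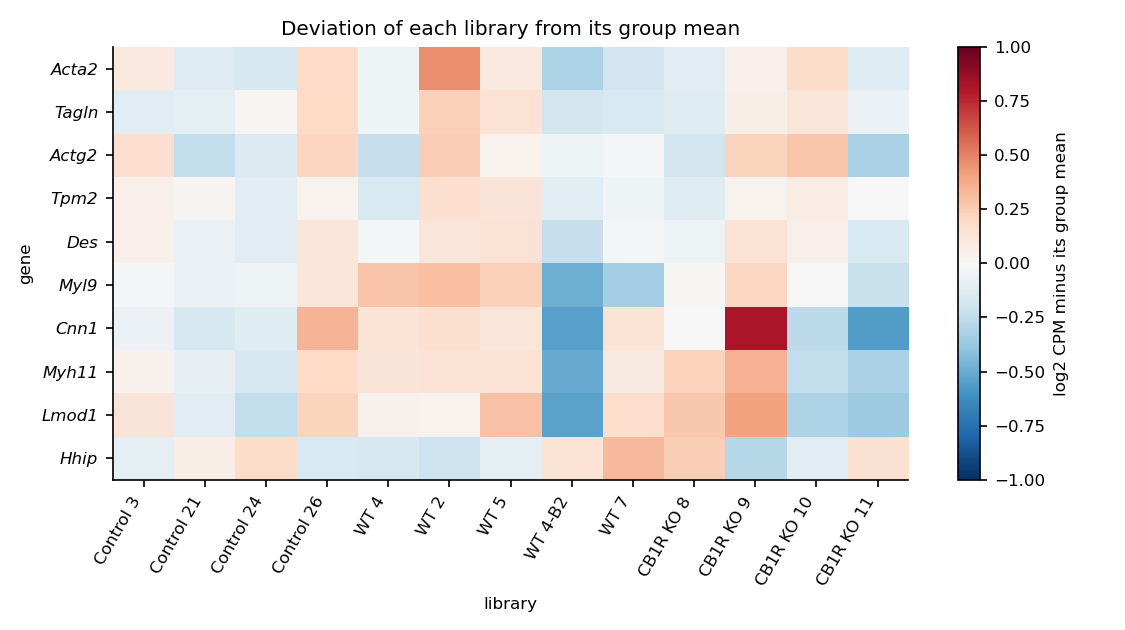
Log2 CPM minus the mean of its group (colour, from -1 to 1) for each of the 10 genes (rows) in each of the 13 libraries (columns). The column of WT 4-B2 is negative and that of CB1R KO 9 positive from Acta2 to Lmod1, and Hhip has the opposite sign in both. Some of these cells are pale, such as Actg2 in WT 4-B2 (-0.04) and Tpm2 in CB1R KO 9 (0.04).

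The genes most like the mean centred profile of the 10 genes were sought outside the 10 genes and the 30 other contractile apparatus genes described below. They were Bves (r = 0.93, rho 0.93), Mfap4 (r = 0.90, rho 0.84), Pde4dip (r = 0.89, rho 0.86), 1700028J19Rik (r = 0.87, rho 0.77), Klhl25 (r = 0.87, rho 0.79) and Bloc1s6 (r = 0.86, rho 0.96), over 13 libraries. Without the 2 libraries farthest from the median, r lay between 0.72 and 0.88 for these 6. Bves encodes a membrane protein of muscle and Mfap4 a protein of elastic microfibrils. Nearest to Hhip were Ofd1 (r = 0.91, rho 0.81), Ube2o (r = 0.91, rho 0.84) and Msto1 (r = 0.89, rho 0.92). They were picked as the highest of all genes tested and therefore carry no test.

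A list of 30 other genes of the contractile apparatus, its anchors and its regulators was read beside the 10 genes. In WT bleomycin against Control 10 were called higher and 11 lower, with a median log2 fold change of -0.12. For this list and those below, the share called among all genes tested was 48.9% in that comparison. It was 0.979% in CB1R KO against WT bleomycin and 35.4% in CB1R KO against Control. Ppp1r14a, the inhibitor of myosin phosphatase known as CPI-17, was lower (log2 fold change -1.38, SE 0.11, adjusted p = 2.7e-07), as was Synm, the intermediate filament protein synemin (-1.46, SE 0.12, adjusted p = 3.3e-07). Lpp, a protein of focal adhesions, was higher (0.67, SE 0.07, adjusted p = 2.5e-06), as was Itga7, a laminin receptor of muscle (1.32, SE 0.13, adjusted p = 2.9e-06). Mylk, the kinase that starts smooth muscle contraction, was lower (-0.38, SE 0.10, adjusted p = 0.0063). Between the bleomycin groups 1 of 30 was called, Actn1, an alpha actinin that crosslinks actin (-0.52, SE 0.11, adjusted p = 0.037). Its TPM was 98.7 ± 5.13 in Control (n = 4), 188 ± 17.0 in WT bleomycin (n = 5) and 137 ± 20.3 in CB1R KO (n = 4). Other settings called from 0 to 6 of the 30. Against Control, 8 were higher and 8 lower in CB1R KO lungs, led by Itga7 (1.31, SE 0.14, adjusted p = 1.2e-05), Ppp1r14a (-0.98, SE 0.11, adjusted p = 2e-05), Synm (-1.04, SE 0.12, adjusted p = 2.4e-05) and Lpp (0.52, SE 0.07, adjusted p = 7.3e-05). Casq2 and Pln, calcium handling genes of smooth and heart muscle, are named after their values were seen. They were lower in WT bleomycin than in Control (-1.61, SE 0.41, adjusted p = 0.0046 and -1.27, SE 0.35, adjusted p = 0.0078), and the cardiac markers given beside Des moved the same way.

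Each smooth muscle protein has a counterpart used by other cells. Of 13 such genes, 6 were called higher and 3 lower in WT bleomycin against Control, with a median of 0.15. Tpm4 (0.57, SE 0.06, adjusted p = 7.2e-06), a tropomyosin of non-muscle cells, and Actg1 (0.50, SE 0.06, adjusted p = 2.1e-05), cytoplasmic gamma actin, were higher, and so was Myh9 (0.33, SE 0.06, adjusted p = 0.00043), the heavy chain of non-muscle myosin IIA. Myh10, that of myosin IIB, was lower (-0.49, SE 0.09, adjusted p = 0.00037). Actb, beta actin, was at 0.28 (SE 0.07, adjusted p = 0.0035). Between the bleomycin groups edgeR called 0 of 13 (3 at an unadjusted p under 0.05), and in CB1R KO against Control 5 were higher and 2 lower.

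Of 10 genes that control transcription in smooth muscle, 1 was called in WT bleomycin against Control, Foxo4, a forkhead factor (-0.89, SE 0.08, adjusted p = 6.1e-07). Foxo4 (-0.70, SE 0.08, adjusted p = 2.1e-05) and Klf5, a zinc finger factor (-0.42, SE 0.14, adjusted p = 0.036), were called lower in CB1R KO against Control. In CB1R KO against WT bleomycin edgeR called 0 of 10 (2 at an unadjusted p under 0.05). Of these 2, Srf, serum response factor itself, had the lower p (log2 fold change -0.26, SE 0.08, unadjusted p = 0.0073, adjusted p = 0.14). Srf ranged from 37.4 to 43.2 TPM in Control (n = 4), from 34.97 to 48.1 in WT bleomycin (n = 5) and from 31.4 to 39.4 in CB1R KO (n = 4), without a call. Its partner Myocd, the myocardin of smooth and heart muscle, was low at 0.563 ± 0.0953, 0.936 ± 0.301 and 0.625 ± 0.197 TPM (mean ± SD, same groups), also without a call. Mrtfa, the related coactivator that senses free actin, stood at 21.5 ± 2.77, 22.8 ± 1.88 and 23.9 ± 1.48 TPM.

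Among 14 receptors and signalling genes that drive or relax smooth muscle, 7 were called lower and 1 higher in WT bleomycin against Control, with a median of -0.56. Ednrb, the endothelin B receptor (-1.75, SE 0.22, adjusted p = 1.7e-05), which lung endothelium also expresses, Chrm3, the muscarinic receptor of airway contraction (-1.12, SE 0.20, adjusted p = 0.00031), Agtr1a, the angiotensin receptor (-0.84, SE 0.15, adjusted p = 0.00034), and Trpc6, a calcium channel (-0.54, SE 0.11, adjusted p = 0.00073), had the lowest p. All 5 endothelial markers were lower too, with a summed TPM of 1498 to 1942 in Control and 1029 to 1233 in WT bleomycin, and their part in Ednrb was not tested. CB1R KO lungs again had 7 lower and 1 higher against Control, with Chrm3 at -1.56 (SE 0.21, adjusted p = 7.9e-05). The quasi-likelihood test of edgeR called 0 of 14 between the bleomycin groups (1 at an unadjusted p under 0.05).

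Of 15 other Hedgehog genes 14 were tested, and the ligand gene Ihh, at most 0.295 TPM in any library, did not pass the count filter. In WT bleomycin against Control 5 were higher and 1 lower. Gli1, the transcription factor and standard target of the pathway, was higher (0.57, SE 0.11, adjusted p = 0.00083), as were Hhat, the enzyme that acylates the ligands (1.09, SE 0.19, adjusted p = 0.00035), Smo, the signal transducer (0.27, SE 0.07, adjusted p = 0.0047), and the ligand gene Shh (0.52, SE 0.15, adjusted p = 0.011). Ptch1, the receptor and also a target, was lower (-0.62, SE 0.09, adjusted p = 5e-05). For CB1R KO against Control 3 were higher and 1 lower, with Gli1 at 0.57 (SE 0.12, adjusted p = 0.0021), Shh at 0.71 (SE 0.16, adjusted p = 0.003) and Ptch1 at -0.40 (SE 0.09, adjusted p = 0.004). Hhip was called higher here as well, and its difference between the bleomycin groups did not pass the test. None of the 14 was called by edgeR in CB1R KO against WT bleomycin (2 at an unadjusted p under 0.05), where Gli1 was at 0.00 (SE 0.11).

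**Figure D5:**
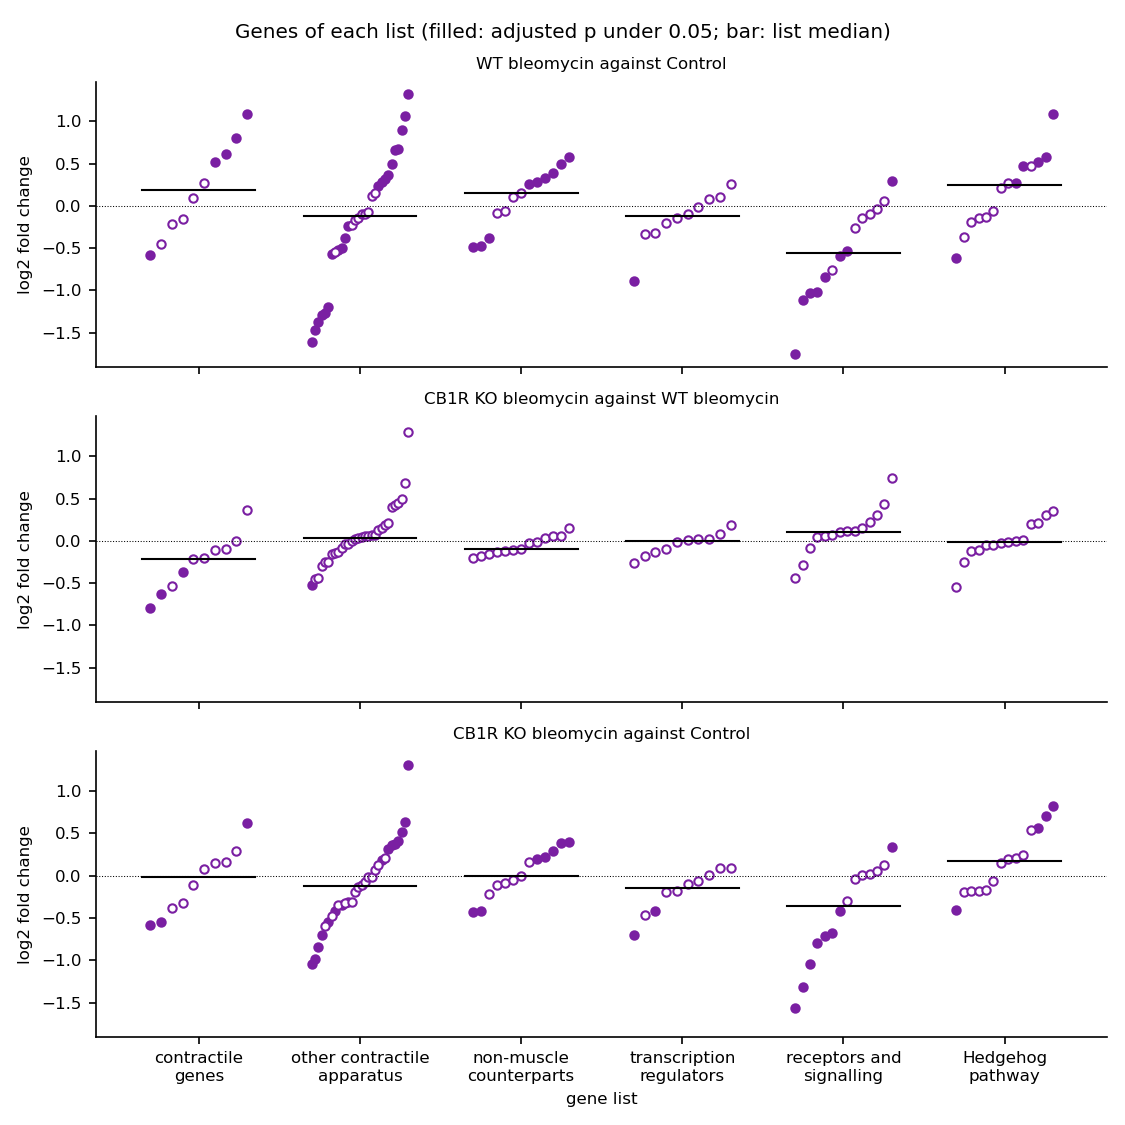
Log2 fold change (vertical axis) of each of the 10 genes (labelled contractile genes, Hhip among them) and of the genes in the 5 other lists (horizontal axis) in the 3 comparisons, filled where the adjusted p is under 0.05, with the list median as a bar. Filled points lie on both sides of 0 in the comparisons with Control, and 3 contractile genes and 1 gene of the contractile apparatus are filled in CB1R KO against WT bleomycin.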

How the data were processed

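RNA from the lower right lung lobe of 13 mice was sequenced by the authors (poly-A libraries, paired-end reads). According to the methods and the submitters' processing notes, reads were quantified with Kallisto on the Ensembl release 105 mouse reference (GRCm39), and the authors added up estimated counts and TPM per gene symbol across its protein-coding transcripts. The deposited count table holds estimated counts that are not normalized, and the deposited TPM table is scaled for length and library total. The TPM table holds 1 column of no sample in the series, which was not used, and 13 files of single samples were not used either.

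Estimated counts were rounded, filtered with filterByExpr and scaled by TMM and tested in edgeR 4.0.16 (R 4.3.3, quasi-likelihood test), with 3 groups, no covariates and Benjamini-Hochberg adjustment over 15315 genes, at an adjusted p of 0.05. Standard errors were taken as the absolute log2 fold change over the square root of F. The procedure was tested on simulated data. Correlations used log2 CPM with a prior count of 2. Promoters came from RefSeq GRCm38.p6, another build than the authors', and no coordinates were combined across builds. Tables and plots used Python 3.11.15, pandas 2.3.3, numpy 2.4.6, scipy 1.17.1 and matplotlib 3.10.9.

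The 10 genes, the other gene lists and the marker lists were chosen with earlier results of these data known. Named were the 10 genes, from each list up to 4 called genes per comparison in order of p, a few defining genes whatever their test, and the genes most like the 10 genes or Hhip across libraries. A result for 1 gene of these lists is left out. The marker lists were those of pericytes, activated and alveolar fibroblasts, cardiac and skeletal muscle, ciliated, club, mesothelial, endothelial and type II cells and leukocytes.

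The settings tried besides were a fit without the count filter, a stricter filter (10 counts or more in each library), scaling by RLE or by the upper quartile, DESeq2 1.42.0 with 3 or with 2 groups, limma 3.58.1 on log2(TPM + 1) and log2(TPM + 0.1), edgeR with 2 groups, label style added as a term, lower-case labels only, CB1R KO replicate 11 thinned, and 13 fits that each left out 1 library.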

Additional observations from a re-analysis of the deposited data

Results flagged for a closer look

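In groups of 4 or 5 libraries, 33 sets of values were searched for a highest or lowest library that stands apart by Dixon's criterion at 95%, and 5 met it, where chance alone gives about 1 in 20. Cnn1 was highest in Control mouse 26, at 56.05 CPM against at most 42.4 CPM in the other Control mice. Tpm2 was lowest in Control mouse 24, at 46.62 CPM against at least 51.3 CPM in the others. In WT bleomycin mouse 4-B2, Cnn1 was lowest at 25.89 CPM against at least 41.0 CPM in the others, and Myh11 was lowest at 110.2 CPM against at least 166 CPM. Without this mouse the log2 fold change of Myh11 against Control stayed past the threshold. The total of CB1R KO replicate 11, 53463884 estimated counts, stood apart from the other CB1R KO libraries. Thinning it to their depth left 3 of the 10 genes called in CB1R KO against WT bleomycin, and leaving it out left 0.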

How the results depend on the processing

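No paired analysis was possible because the mouse numbers in the labels are not shared between the groups. Over 25 alternatives the count of the 10 genes called in WT bleomycin against Control (5) stayed between 4 and 6, and that of the 30 other contractile apparatus genes (21) between 16 and 21. In CB1R KO against WT bleomycin, 3 of the 10 genes were called, and 1 with label style as a term and 1 with lower-case labels only. With 1 library left out the count was 0 to 4, with 0 without CB1R KO mouse 8, 9 or 11, 1 without WT mouse 5, 4-B2 or 7, and 4 without CB1R KO mouse 10. The count over the 30 other genes (1) was 6 with DESeq2 on all libraries and 6 on the 2 groups, 0 with edgeR on the 2 groups, 0 with label style as a term, 0 with lower-case labels, and 0 to 5 with 1 library left out. Among all genes tested the 150 calls became 640 and 644 with DESeq2, 6 with lower-case labels, and 1 to 653 with 1 library left out, the lowest without CB1R KO mouse 9 and the highest without CB1R KO mouse 10. The cause of these shifts was not tested. Tagln passed the threshold in 22 of 25 alternatives, Actg2 in 17, Tpm2 in 13 and Acta2 in 3, each with a negative fold change in all 25. In CB1R KO against Control the count of 3 became 5 with limma on log2(TPM + 1) and 5 with limma on log2(TPM + 0.1), and the count over the 30 other genes (16) stayed between 12 and 16. Acta2, Tagln, Tpm2 and Actg2 passed in all 25 alternatives of WT bleomycin against Control, Myh11 in 24 and Lmod1 in 8. No called gene of the 10 changed its sign. At least 124 estimated counts stand behind each library value, and the number of mice, 4 or 5 per group, limits the precision.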

Other observations

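Airway and immune markers not given beside a result above were as follows. Of 6 ciliated cell markers 1 was lower in WT bleomycin against Control and 4 in CB1R KO against Control, with a summed TPM of at least 628 in Control, 338 to 443 in WT bleomycin and 319 to 506 in CB1R KO libraries. The 1 lower in WT bleomycin was Tppp3 (log2 fold change -1.21, SE 0.14, adjusted p = 9e-06). The other 5 lay between -0.24 and 0.13 and were not called. The part of Tppp3 in the sums was not computed. Of 4 club cell markers 3 were lower in WT bleomycin against Control and 2 in CB1R KO against Control. Their sums were 83100 to 93950, 39800 to 60020 and 36700 to 46900 TPM in Control, WT bleomycin and CB1R KO libraries. Of 4 mesothelial markers 1 was higher and 1 lower in WT bleomycin against Control, and 1 was lower in CB1R KO against Control. Of 5 leukocyte markers 1 was higher and 1 lower in WT bleomycin and 2 higher and 1 lower in CB1R KO against Control, with 6336 to 6985, 6296 to 9454 and 9818 to 10970 TPM. The 2 higher in CB1R KO were Cd68 (log2 fold change 1.31, SE 0.14, adjusted p = 1.4e-05) and Lyz2 (0.58, SE 0.11, adjusted p = 0.0009). The 1 lower was Cd79a (-0.84, SE 0.30, adjusted p = 0.043), and 3 of the 5 had a negative log2 fold change. Of 9 skeletal muscle markers 4 passed the count filter and 1 was lower in each comparison with Control, with sums of at most 37.8 TPM. In CB1R KO against WT bleomycin edgeR called 0 of the ciliated, club, mesothelial, leukocyte and skeletal muscle markers (5, 2, 1, 1 and 3 at an unadjusted p under 0.05). Of 6 pericyte markers 2 were higher and 3 lower in WT bleomycin against Control, with 291 to 309 TPM in Control libraries. Of 7 alveolar fibroblast markers 6 were lower and of 8 activated fibroblast markers 8 were higher in the same comparison.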
